A study of Mus musculus with 8 samples.

Results

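The genes described here are 10 members of the cohesin machinery, read from a bulk RNA table of mouse testis. They are the SMC subunits Smc1a, Smc1b and Smc3, the kleisins Rec8, Rad21l and Rad21, the STAG subunits Stag1, Stag2 and Stag3, and the shugoshin Sgo2a. Members were picked by gene symbol, and each of the 10 matched 1 of the 57690 rows of the table. All 10 averaged 1 TPM or more over the libraries, and so were among the 20343 genes tested. Rec8, Rad21l, Smc1b, Stag3 and Sgo2a are the meiotic members. Rad21, Smc1a, Stag1 and Stag2 are their mitotic counterparts, and Smc3 is used in both kinds of division.

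The animals were C57BL/6 males aged 8 weeks. One group of 4 libraries came from mice injected intraperitoneally 2 times with 200 µg of an IgG2b isotype control antibody, and the other group of 4 from mice injected in the same way with anti-PD-L1, an antibody against the ligand of the T cell receptor PD-1. Testes were taken 7 days after treatment, and the labels name no genetic alteration in either group. Transcript levels are given as TPM, which corrects for gene length and for the size of the library. Genes can therefore be compared within a library, while the read depth is unknown. Nothing in the labels says that the libraries of a group are separate animals, and p-values here therefore measure the spread among these samples alone, which may be technical.

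Cohesin is a ring that holds sister chromatids together and also shapes chromatin into loops. An SMC1 protein and SMC3 form the arms of the ring, a kleisin closes it, and a STAG protein binds the kleisin. In meiotic cells SMC1B, REC8, RAD21L and STAG3 take the place of SMC1A, RAD21, STAG1 and STAG2 in much of the cohesin, along the chromosome axes on which homologs pair. Separase cuts the kleisin to release the chromatids, and shugoshins shield kleisin at the centromere until the second meiotic division.

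The libraries carried the transcripts of testis germ cells and somatic cells. The spermatocyte gene Sycp3 had a mean of 205 TPM in the IgG group and 220 TPM in the anti-PD-L1 group, the protamine gene Prm1 15628 and 13478 TPM, and the Sertoli cell gene Sox9 4.82 and 5.28 TPM. IgG replicate 4 and anti-PD-L1 replicate 1 stood apart from the other 6 libraries on the first principal component of log2(TPM + 1), at -44.5 and -54.5 against 11.7 to 21.1. Their median correlations with the other libraries across genes were 0.962 and 0.957, against 0.971 to 0.976 for the rest. Results that rest on these libraries are given below with and without them. In bulk tissue, fewer cells of a type and less RNA per cell cannot be told apart.

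None of the 10 members passed the test between the groups, which was limma on log2(TPM + 1) with Benjamini-Hochberg adjustment over all 20343 genes, and their adjusted p ranged from 0.826 to 0.999. The share of all genes tested that passed was 0%, with 1063 genes (5.23%) at an unadjusted p under 0.05. What the data show most plainly is the order of the members within a library. Stag3 was the most abundant and Rad21l the least. Smc1b and Stag3 exceeded their mitotic counterparts in every library, Rec8 and Rad21 were close, and Rad21l was far below Rad21.

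**Figure D1:**
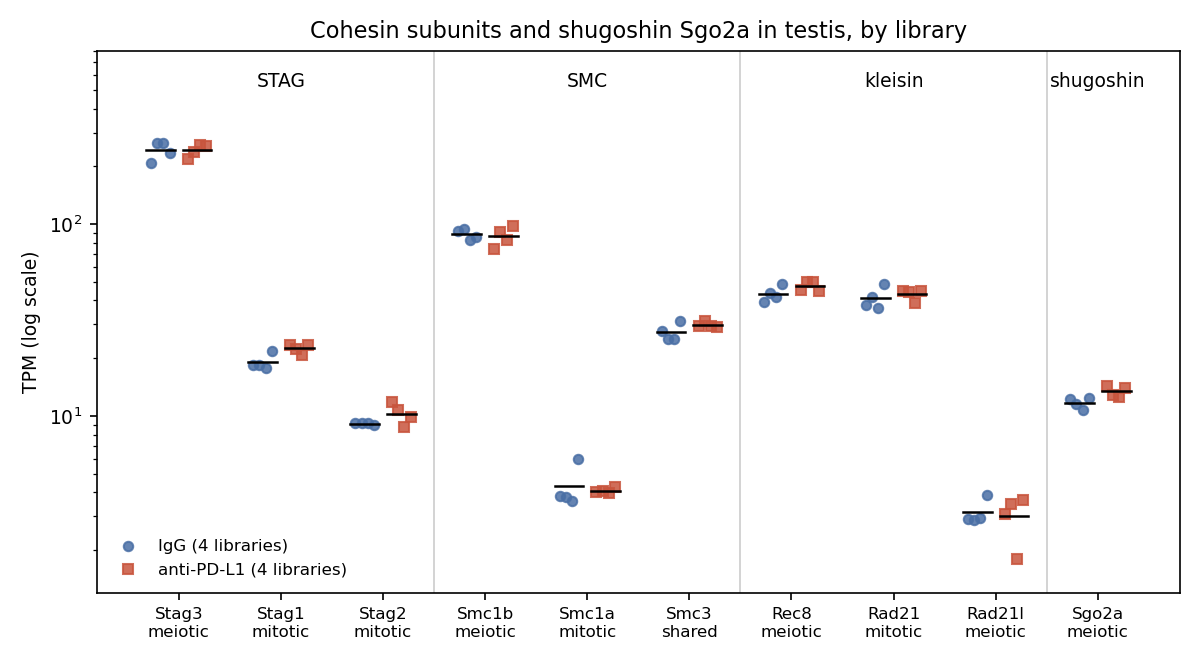
TPM of the 10 members on a log axis, grouped by place in the complex, with circles for the 4 IgG libraries, squares for the 4 anti-PD-L1 libraries and a black line at each group mean. Stag3 lies highest, with means of 242 TPM in both groups, and Rad21l lowest, at 3.15 and 3.01 TPM.

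The order of mean TPM over the 8 libraries was Stag3 (242), Smc1b (87.5), Rec8 (45.4), Rad21 (42.2), Smc3 (28.6), Stag1 (20.8), Sgo2a (12.6), Stag2 (9.72), Smc1a (4.19) and Rad21l (3.08). Against all genes tested, Stag3 stood at percentile 96.3 by mean level and Rad21l at percentile 25.1. Neighbours in this order held their place in all 8 libraries except Rec8 and Rad21, where Rec8 was higher in 7 of 8. Sgo2a values may include reads of an overlapping gene, described below, so its place above Stag2 is less certain. The ranges of the 8 values overlapped for Rec8 and Rad21, for Sgo2a and Stag2, and for Smc1a and Rad21l, and were separate for the other 6 neighbouring pairs.

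Summed by place in the ring, the SMC1 genes reached 92.8 ± 4.94 TPM in the IgG group and 90.6 ± 10.1 TPM in the anti-PD-L1 group (SD, n = 4). The kleisins summed to 87.7 ± 9.76 and 93.7 ± 2.99 TPM, close to the SMC1 sum. Smc3, the sole partner of either SMC1, was lower, at 27.3 ± 2.76 and 29.8 ± 0.866 TPM. The STAG genes summed to 271 ± 26.6 and 275 ± 16.9 TPM. Transcript sums do not give protein amounts. The meiotic gene held 93.5% to 96.1% of the SMC1 sum over the 8 libraries and Stag3 86.0% to 90.7% of the STAG sum. Rec8 and Rad21l together held 51.9% to 57.3% of the kleisin sum.

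The stretches of DNA just before the annotated starts also differ among members, and 4 are shown: Rad21l, the least abundant member, Smc3 and Stag1 from the mitotic or shared members, and Sgo2a, which the comparison of the groups returns to. Sequences are from RefSeq, build GRCm38.p6, where 8 of the 10 members matched, and each runs 5′ to 3′ on the gene's strand up to its start. RefSeq starts can differ from the gene spans given below, which are from GENCODE. The RefSeq start of Stag1, at 100643448, lies inside its GENCODE span of 100597798 to 100959375. For printing, windows that run into annotated exons were shortened or left out. The base content and motif matches given below use the full windows, exon bases included. Capitals mark matches to the motifs named below.
Rad21l, chr2:151668534-151668683, minus strand: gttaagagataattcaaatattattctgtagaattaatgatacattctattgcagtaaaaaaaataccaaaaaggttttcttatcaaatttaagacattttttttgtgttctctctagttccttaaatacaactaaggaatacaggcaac
Smc3, chr19:53600246-53600395, plus strand: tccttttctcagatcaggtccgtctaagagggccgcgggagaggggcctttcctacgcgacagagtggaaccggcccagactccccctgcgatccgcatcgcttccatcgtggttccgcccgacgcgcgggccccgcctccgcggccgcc
Stag1, chr9:100643298-100643447, plus strand: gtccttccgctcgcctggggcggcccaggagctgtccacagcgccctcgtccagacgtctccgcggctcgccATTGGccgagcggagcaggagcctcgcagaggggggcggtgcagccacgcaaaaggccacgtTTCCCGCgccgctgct
Sgo2a, chr1:57995824-57995970, plus strand: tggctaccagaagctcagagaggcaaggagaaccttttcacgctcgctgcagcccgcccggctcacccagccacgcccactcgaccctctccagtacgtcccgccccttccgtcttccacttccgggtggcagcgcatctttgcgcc

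Over the full 250 bases before its start, Rad21l had 25.6% G and C and 1 CpG, against medians of 52.4% and 6 CpG over 32851 such windows. Smc3 had 64.4% G and C with 26 CpG, Stag1 71.2% with 31, Stag3 62.8% with 26 and Smc1b 58.0% with 25. Rec8, at 56.0% with 10 CpG, and Smc1a, at 56.8% with 16, lay between. Sgo2a had 52.8% with 8 CpG at the upstream one of its starts and 62.0% with 15 at the other. Annotated exons covered all of the last 150 bases of the Stag3 window. They covered 129 of these bases in Rec8, 37 in Smc1b, 18 in Smc1a and 3 at the downstream start of Sgo2a. By this measure the meiotic members were no single kind, since Smc1b resembled Smc3 in CpG while Rad21l was poor in CpG. Stag3 also had values near those of Smc3, but largely from annotated exon bases.

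Motifs were searched on both strands of the same windows, including the annotated exon bases, so matches in Stag3, Rec8 and Smc1b may lie in exons. GCGGGAA, the core of E2F sites, was in Smc1b and Stag1 and in 3.82% of all windows. CACGTG, an E-box that MAX partners bind, was in Stag3 and in 6.02% of all windows. CCAAT, the NF-Y box, was in Rec8, Smc1a, Smc1b, Stag1, Stag3 and the upstream one of the pair of Sgo2a starts, and in 33.8% of all windows. CNCCTCAG, a motif described for the meiotic regulator STRA8, was in no member window and in 6.42% of all windows. A match is a description of these letters only.

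The SMC1 genes lay far apart in level. Smc1b (mm10 chromosome 15, 85064689 to 85131964), the meiotic SMC1 gene, was at 91.6, 94.0, 82.9 and 85.6 TPM in IgG replicates 1 to 4 and at 74.6, 90.8, 83.0 and 97.7 TPM in anti-PD-L1 replicates 1 to 4. The groups overlapped, with the lowest and the highest of the 8 values both in the anti-PD-L1 group. On the log2 scale it differed by -0.04 (95% confidence interval -0.23 to 0.16), or by 0.03 without anti-PD-L1 replicate 1, its lowest library.

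Smc1a (chromosome X, 152016428 to 152062694), the X-linked SMC1 gene of dividing somatic cells, was at 3.85, 3.80, 3.62 and 5.95 TPM in IgG libraries. In anti-PD-L1 libraries it was at 4.0, 4.09, 3.98 and 4.25 TPM. IgG replicate 4 lay above all 7 other libraries. The remaining IgG libraries lay below the treated ones, but how many of all genes do so without that library was not counted. With all libraries its log2 difference was -0.04 (SE 0.15). Without IgG replicate 4 it was 0.10 (adjusted p = 0.766, limma, Benjamini-Hochberg), and leaving out both libraries that stand apart gave 0.10, so its direction rests on that library.

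Smc3 (chromosome 19, 53600398 to 53645833), the arm shared by all cohesin rings, was at 27.6, 25.3, 25.2 and 31.1 TPM in IgG libraries and at 29.4, 31.1, 29.5 and 29.3 TPM in anti-PD-L1 libraries. IgG replicate 4 again lay high, beside the highest anti-PD-L1 value. The other IgG libraries were below all of the treated ones, a pattern that was not counted over all genes. Smc3 differed by 0.13 on the log2 scale (95% interval -0.05 to 0.30), by 0.19 without IgG replicate 4. With both libraries that stand apart left out it differed by 0.20.

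Among the kleisins, Rec8 and Rad21 were at nearly the same level. Rec8 (chromosome 14, 55618037 to 55625395), the kleisin that carries cohesion through meiosis, was at 39.4, 43.8, 41.5 and 48.6 TPM in IgG libraries and at 45.2, 49.7, 50 and 45.0 TPM in anti-PD-L1 libraries. The anti-PD-L1 values lay above 3 of the 4 IgG libraries and around the other, IgG replicate 4. How many of all genes do so was not counted. Rec8 had a log2 difference of 0.13 (95% interval -0.04 to 0.30), or 0.19 without IgG replicate 4. With both libraries that stand apart left out it was 0.21, while dropping IgG replicate 1 gave 0.09.

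Rad21 (chromosome 15, 51962240 to 51991747), the kleisin of mitotic cohesin, was at 37.7, 41.8, 36.6 and 48.7 TPM in IgG libraries and at 44.8, 44.5, 38.6 and 44.7 TPM in anti-PD-L1 libraries. The highest value was in IgG replicate 4, and anti-PD-L1 replicate 3 lay below the other 3 treated libraries, so the groups overlapped widely. Rad21 differed by 0.07 on the log2 scale (SE 0.10), by 0.15 when IgG replicate 4 was left out and by 0.02 when IgG replicate 3 was. Leaving out both libraries that stand apart gave 0.14.

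Rad21l (chromosome 2, 151645404 to 151668533), a meiosis-specific kleisin of early prophase, was at 2.92, 2.89, 2.93 and 3.86 TPM in IgG libraries. In anti-PD-L1 libraries it was at 3.09, 3.50, 1.79 and 3.66 TPM. It varied the most of the 10 members relative to its level, with a coefficient of variation of 20.8% over the 8 libraries against 8.11% to 17.5% for the others. Single libraries set its direction: the log2 difference was -0.07 (SE 0.18) with all libraries, 0.007 when IgG replicate 4 was left out and 0.09 when anti-PD-L1 replicate 3, which holds its lowest value, was. Leaving out both libraries that stand apart gave -0.01.

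**Figure D2:**
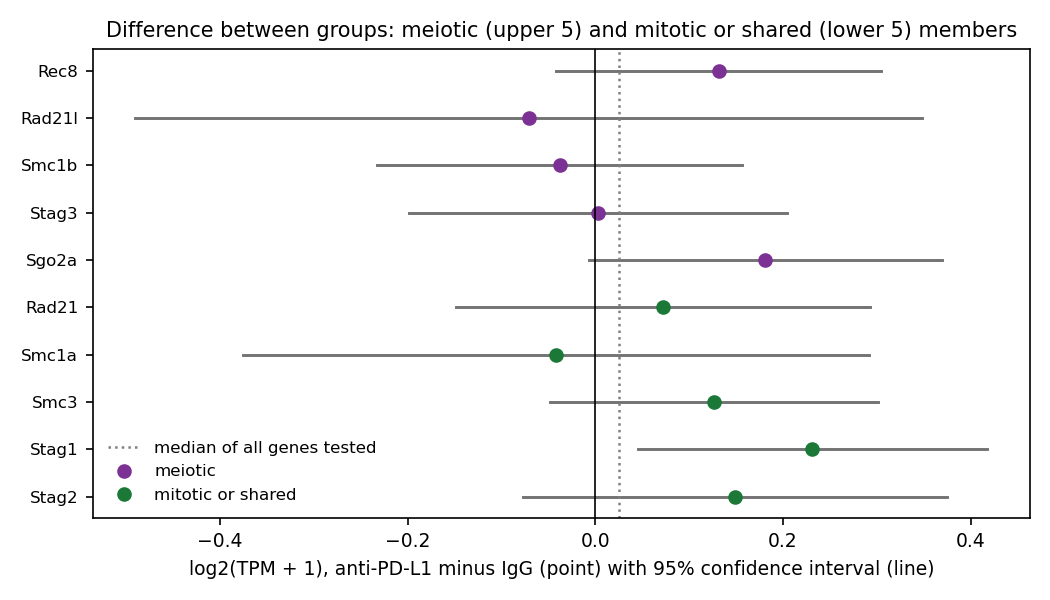
Log2 difference of each member, anti-PD-L1 minus IgG on the log2(TPM + 1) scale, with 95% confidence intervals from limma, meiotic members above and mitotic or shared members below. The interval of Stag1, from 0.05 to 0.42, is the single one that does not reach 0, and the dotted line is the median of all genes tested, 0.03.

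The STAG genes held both the most abundant member and the one with the smallest p. Stag3 (chromosome 5, 138280240 to 138312393), the STAG subunit of meiotic cohesin, was at 208, 263, 264 and 234 TPM in IgG libraries and at 217, 239, 257 and 256 TPM in anti-PD-L1 libraries. The IgG values span the treated ones, and the group means were equal to 3 digits, at 242 TPM. A log2 difference of 0.003 had a 95% interval from -0.20 to 0.20, and its sign turned with TMM rescaling, array quality weights and 4 of the 8 single libraries left out.

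Stag1 (chromosome 9, 100597798 to 100959375), a STAG subunit of mitotic cohesin, was at 18.4, 18.5, 17.8 and 21.8 TPM in IgG libraries and at 23.5, 22.5, 20.9 and 23.5 TPM in anti-PD-L1 libraries. The groups overlapped through 1 library on each side: IgG replicate 4 was above anti-PD-L1 replicate 3, and otherwise the treated libraries were higher. How many of all genes overlap in this way was not counted. The log2 difference was 0.23 (SE 0.08), and limma's adjusted p was 0.826 (Benjamini-Hochberg; unadjusted 0.0205). An exact two-sided permutation test of mean TPM over the 70 assignments gave p = 0.0571. It was the 1 member of 10 at an unadjusted p under 0.05, where 5.23% of all genes tested lay. That count moved with single libraries: it was 4 without IgG replicate 4 (Rec8, Smc3, Stag1 and Sgo2a), 3 without anti-PD-L1 replicate 3, 0 without IgG replicate 2 or 3 or anti-PD-L1 replicate 4. With both libraries that stand apart left out it was 3. The count over all genes tested moved as well, from 1063 with all libraries to 1861 without IgG replicate 4 and 2009 without both. It was 1038 without anti-PD-L1 replicate 3. Leaving out IgG replicate 2, IgG replicate 3 or anti-PD-L1 replicate 4 gave 774, 803 and 908. Without IgG replicate 4 the Stag1 difference was 0.29 (adjusted p = 0.311, limma, Benjamini-Hochberg), and without both libraries that stand apart 0.28 (0.368 by the same test).

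Stag2 (chromosome X, 42149317 to 42277185), the other mitotic STAG subunit, was at 9.20, 9.18, 9.24 and 8.93 TPM in IgG libraries and at 11.9, 10.7, 8.73 and 9.90 TPM in anti-PD-L1 libraries. The IgG libraries were tightly grouped, with an SD of 0.141 TPM against 1.33 TPM, and 3 of the 4 treated libraries were above them while anti-PD-L1 replicate 3 was below. That pattern was not counted over all genes. Stag2 differed by 0.15 on the log2 scale (95% interval -0.08 to 0.38), by 0.08 without anti-PD-L1 replicate 1, the highest library, and by 0.07 without both libraries that stand apart.

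Sgo2a (chromosome 1, 57995971 to 58025899), the shugoshin that protects centromeric cohesin in meiosis, was the 1 member whose groups did not overlap. It was at 12.3, 11.5, 10.7 and 12.5 TPM in IgG libraries and at 14.4, 12.9, 12.5 and 13.98 TPM in anti-PD-L1 libraries, and the gap between the groups, from 12.46 to 12.53 TPM, was narrow. Of all genes tested, 2.99% had groups that did not overlap, in either direction. Its log2 difference was 0.18 (SE 0.08), and limma's adjusted p was 0.972 (Benjamini-Hochberg; unadjusted 0.0575). The exact two-sided permutation test gave an unadjusted p = 0.029, the smallest that 4 against 4 libraries allow. Any gene whose groups do not overlap gets this p, so it restates the separation and adds no further support.

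Sgo2a also shares sequence with another gene. Of the 50-base words in its GENCODE transcripts, 33.6% occur on the opposite strand of transcripts of Kctd18, a protein-coding gene (chromosome 1, 57955101 to 58018956, minus strand) whose span overlaps that of Sgo2a, and 1.88% occur in its paralog Sgo2b. The strand setting of the counting is not given in the sources used here, so reads of Sgo2a and Kctd18 may not have been told apart. Kctd18 was at 10.97, 10.1, 10.2 and 15.7 TPM in IgG libraries and at 15.6, 11.5, 10.7 and 12.6 TPM in anti-PD-L1 libraries. Its groups overlapped, its log2 difference was 0.10 (SE 0.16), and its highest values were in the libraries that stand apart. Its part in the Sgo2a values was not tested. The other 9 members shared at most 1.37% of such words with other genes, the most in Smc3.

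**Figure D3:**
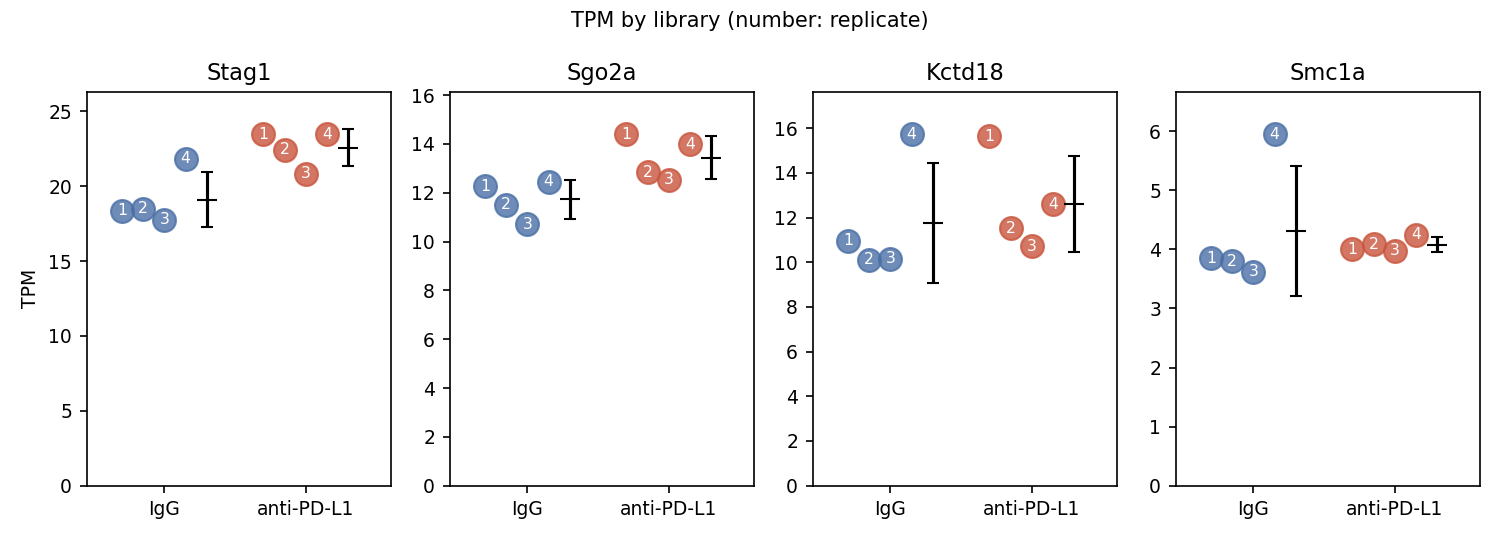
TPM of Stag1, Sgo2a, the overlapping gene Kctd18 and Smc1a in each library, with the replicate number inside each point and the mean ± SD beside each group of 4. Sgo2a is the one whose groups do not overlap, and IgG replicate 4 is the highest IgG library in all 4 panels.

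As a list, 7 of the 10 members had higher and 3 lower means on the log2 scale after anti-PD-L1, where 58.3% of all genes tested were higher. The median difference was 0.10, against 0.03 over all genes. Split by role, the 5 meiotic members had a median of 0.003 and ranged from -0.07 to 0.18, and the 5 mitotic or shared members had a median of 0.13 and ranged from -0.04 to 0.23. With TMM rescaling 6 of 10 were higher, and the median of the meiotic members was -0.03, against -0.0005 over all genes. Without both libraries that stand apart 9 of 10 were higher. The medians were then 0.04 for the meiotic and 0.14 for the mitotic or shared members, against 0.04 over all genes. The share of all genes that were higher was not counted in these settings. IgG replicate 4 held the highest IgG value for 7 of the 10 members, and anti-PD-L1 replicate 3 the lowest treated value for 6.

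Ratios between paralogs within a library do not depend on how the library was scaled. Smc1b exceeded Smc1a in all 8 libraries, by 14.4-fold to 24.7-fold in TPM. Stag3 exceeded Stag1 by 9.25-fold to 14.9-fold and Stag2 by 18.3-fold to 29.4-fold. The kleisins differed from this pattern: the ratio of Rec8 to Rad21 lay between 0.999 and 1.29, and Rad21l was at 0.0463 to 0.0819 of the level of Rad21.

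None of the 5 ratios differed between the groups beyond the spread of the libraries, by two-sided exact permutation of log2 ratios over 70 assignments with Benjamini-Hochberg adjustment over the 5. The log2 ratio of Stag3 to Stag1 had the lowest p. It was 3.50, 3.83, 3.89 and 3.42 in IgG libraries and 3.21, 3.41, 3.62 and 3.45 in anti-PD-L1 libraries. These groups overlapped, with a difference of -0.24 (exact p = 0.171, adjusted 0.821).

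The log2 ratio of Stag3 to Stag2 differed by -0.16 (exact p = 0.429). Leaving out anti-PD-L1 replicate 1, its lowest library, gave -0.04, as did leaving out both libraries that stand apart. The ratio of Rad21l to Rad21 differed by -0.18 (exact p = 0.571), and by -0.002 without anti-PD-L1 replicate 3, the library with little Rad21l. Rec8 to Rad21 differed by 0.06 (exact p = 0.657), with means of 0.08 ± 0.08 and 0.14 ± 0.17 (SD, n = 4). Smc1b to Smc1a differed by 0.009 (exact p = 0.971), and by -0.17 without IgG replicate 4, where the ratio was 3.85 against 4.52 to 4.63 in the other IgG libraries. Without both libraries that stand apart the design of 3 against 3 cannot give an exact p under 0.1.

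**Figure D4:**
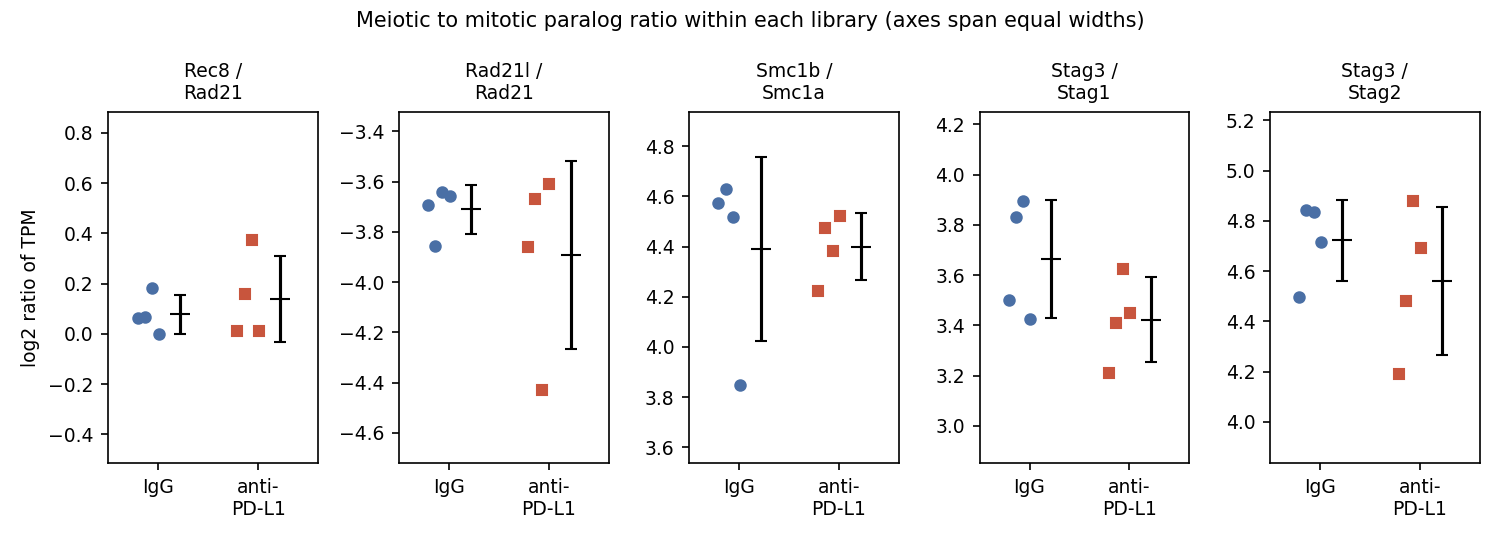
Log2 ratio of TPM of each meiotic gene to a mitotic paralog, with a point for each library and the mean ± SD beside each group of 4, on axes of equal width. The ratio of Rec8 to Rad21 lies near 0 and the ratios of Smc1b and Stag3 between 3.21 and 4.88, and the groups overlap in all 5 panels.

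The wider cohesin pathway was taken as 28 symbols of regulators. Of these, 27 were in the table, the symbol Gsg2 was not found, and 25 were tested. The regulators load, lock, release, cut or protect cohesin, or position it on chromatin. None passed, and limma's Benjamini-Hochberg adjusted p was at least 0.979. Of the 25, 14 were higher and 11 lower. Their median log2 difference was 0.01, in a range from -0.18 to 0.18. At an unadjusted p under 0.05 there were 0 of 25, where 5.23% of all genes lay.

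The loaders Mau2 and Nipbl, which place the ring on DNA, had the smallest p among the regulators. Mau2 was at 21.5, 25.3, 23.7 and 27.3 TPM in IgG libraries and at 28.2, 28.7, 26.0 and 27.9 TPM in anti-PD-L1 libraries. It differed by 0.18 on the log2 scale (SE 0.08), with an adjusted p of 0.979 in limma (Benjamini-Hochberg; unadjusted 0.0588). The groups overlapped, with IgG replicate 4 above anti-PD-L1 replicate 3. Nipbl was at 62.4 ± 1.65 and 66.6 ± 3.33 TPM (SD, n = 4), a log2 difference of 0.09.

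Wapl, which opens the ring to release it, had a log2 difference of 0.09 and stood at 76.5 TPM in IgG replicate 4 against 61.2 to 63.8 TPM in the other IgG libraries. Espl1, which encodes separase, differed by 0.09 on the log2 scale. Without both libraries that stand apart Wapl differed by 0.21 and Espl1 by 0.23, and with 1 library left out by 0.04 to 0.16 and 0.04 to 0.17, the least without anti-PD-L1 replicate 4 for Wapl and without anti-PD-L1 replicate 3 for Espl1. Incenp and Cdca8, which encode subunits of the chromosomal passenger complex that acts on centromeric cohesion, differed by 0.06 and -0.05. With all libraries these 4 had confidence intervals that include 0.

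The other shugoshin genes were scarce. Sgo1, which protects centromeric cohesion in mitosis, was at 1.44 ± 0.357 and 1.24 ± 0.279 TPM (SD, n = 4), a log2 difference of -0.12, or -0.03 without IgG replicate 3. Sgo2b was listed at 0 to 0.04 TPM in the 8 libraries and was not tested. Sgo2a was thus the most abundant of the shugoshin genes.

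Ctcf, the zinc finger factor that stops cohesin at loop anchors, was at 14.8 ± 0.826 and 15.7 ± 2.19 TPM, a log2 difference of 0.07, or 0.01 without anti-PD-L1 replicate 1. Its testis paralog Ctcfl, also called BORIS, was at 3.48 ± 1.30 and 2.90 ± 0.812 TPM, a log2 difference of -0.18 with a confidence interval from -0.71 to 0.36. It was -0.02 without IgG replicate 4, its highest library, and -0.33 without IgG replicate 1. The testis paralog was thus the less abundant of this pair, unlike Smc1b and Stag3. Haspin, a kinase named for haploid germ cells whose histone mark recruits the passenger complex to centromeres, was chosen after its values were seen as the most abundant regulator, at 404 ± 17.7 and 412 ± 21.1 TPM (SD, n = 4).

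**Figure D5:**
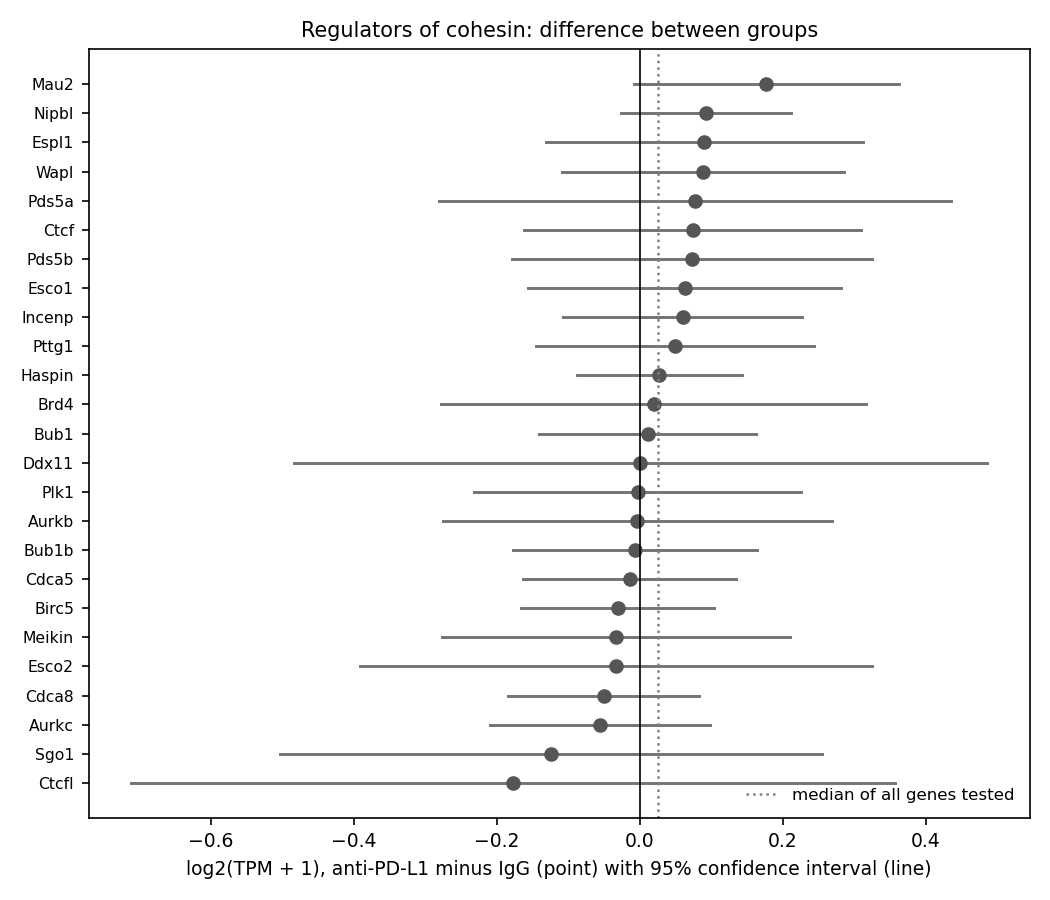
Log2 difference of the 25 tested regulators of cohesin, anti-PD-L1 minus IgG on the log2(TPM + 1) scale, with 95% confidence intervals from limma and the median of all genes as a dotted line. All 25 intervals include 0, from Mau2 at 0.18 to Ctcfl at -0.18.

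Markers of the cells that could hold these transcripts were summed beside them. The 16 spermatocyte markers, from the cells that make meiotic cohesin, summed to 3164 to 3421 TPM in IgG libraries and 3158 to 3376 TPM in anti-PD-L1 libraries, and 10 of the 15 tested were higher, with a median of 0.09. Spermatogonia markers summed to 126 to 152 and 120 to 151 TPM, and markers of proliferating cells to 357 to 382 and 354 to 422 TPM. In each of these lists the groups overlapped.

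All 10 elongating spermatid markers had lower means, summing to 64643 to 80504 TPM in IgG libraries and 61875 to 70139 TPM in anti-PD-L1 libraries, out of 1000000 TPM in a library. Round spermatid markers summed to 1211 to 1376 and 1273 to 1463 TPM, with 7 of 8 higher. Adipocyte markers summed to 12.8 to 99.8 and 9.12 to 14.2 TPM. The Leydig cell list, at 1244 to 1615 and 2208 to 3473 TPM, was the one of the 11 lists whose sums did not overlap with the anti-PD-L1 group above, and Insl3 made up most of it. Only 4 of its 9 markers were higher and 5 were lower, with a median of -0.008, and Insl3 alone went from a mean of 874 to 2210 TPM while the sum went from 1436 to 2782 TPM. Sums of the Sertoli cell, macrophage, peritubular myoid and endothelial lists overlapped between the groups. The part of these cell types in the members' values was not tested.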

How the data were processed

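TRIzol RNA was made into TruSeq libraries, per the labels' protocols. The authors deposited 1 table of TPM per gene, with 8 library columns, group means and another value, the gene length, per the file headers. Tools named in the submitters' processing notes are CASAVA 1.8, HISAT2, StringTie and RSEM, with build mm10. Their roles, the annotation release and the strand setting were not given in the sources used here. Groups came from sample titles. The mean columns and the length column were not used.

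Genes averaging 1 TPM or more were tested on log2(TPM + 1), a pseudocount of 1, with limma 3.58.1 in R 4.3.3 (intensity trend, no covariates, Benjamini-Hochberg at 0.05). The fit was also run on simulated data. Differences planted there were larger than that of any member, so that run does not cover differences of the members' size. Coordinates, overlaps and 50-base words came from GENCODE M21 (GRCm38, equal to mm10). Single values used two-sided exact permutation tests in Python 3.11.15.

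All members are named, with the 6 regulators of smallest p plus Sgo1, Sgo2b, Ctcf and Ctcfl. The members, lists and alternatives were chosen with earlier results of these data known. Alternatives were another pseudocount, other filters, scalings, weights and variance models, a replicate block and left-out libraries. TPM keeps no depth, so no counting intervals are given.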

Additional observations from a re-analysis of the deposited data

Results flagged for a closer look

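In 8 of 48 group-by-value checks over the members, the named regulators and the ratios, 1 library lay far from the other 3 of its group by Dixon's test with a critical value of 0.829, where chance flags about 1 in 20. The checks share libraries, and a ratio reuses the values of its genes. They are therefore not independent, and their count does not measure an excess over chance. In 5 of the 8 flagged checks the library was IgG replicate 4, one of the 2 that stand apart over all genes. It held Rad21l at 3.86 TPM (next 2.93), Smc1a at 5.95 TPM (next 3.85), Wapl at 76.5 TPM (next 63.8) and Ctcf at 16 TPM (next 14.4), and its log2 ratio of Smc1b to Smc1a was 3.85 (next 4.52). The others were Rad21 at 38.6 TPM in anti-PD-L1 replicate 3 (next 44.5), Smc3 at 31.1 TPM in anti-PD-L1 replicate 2 (next 29.5) and Sgo1 at 1.97 TPM in IgG replicate 3 (next 1.33).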

How the results depend on the processing

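No member passed under any of the 18 alternatives, and Rec8, Rad21, Smc3, Stag1, Stag2 and Sgo2a kept a positive difference in all of them, for Stag1 from 0.19 to 0.29 and for Sgo2a from 0.14 to 0.21. The alternatives refit the same libraries, so a sign that holds is not separate support. With all libraries 58.3% of all genes tested were higher. How many of them stayed higher in every alternative was not counted. Genes past the threshold over the whole table numbered 0 as designed, 1 with a pseudocount of 0.1, 5 with array quality weights, 8 without both libraries that stand apart and 0 to 15 with 1 library left out, the most without IgG replicate 4. Genes at an unadjusted p under 0.05 numbered 1063 (611 higher, 452 lower; 524 and 596 after quantile normalization), 2155 with array quality weights, 2009 without both libraries and 774 to 1861 with 1 left out. With array quality weights the differences of Rad21l, Smc1a, Smc1b and Stag3 turned to 0.037, 0.057, 0.002 and -0.040, and Stag3 was -0.027 with TMM rescaling. Without both libraries Smc1a was 0.102, Smc1b 0.015 and the ratio of Smc1b to Smc1a -0.113. With 1 library left out Rad21l ranged from -0.152 to 0.094, Smc1a from -0.101 to 0.095, Smc1b from -0.098 to 0.030, Stag3 from -0.069 to 0.054, the ratio of Rec8 to Rad21 from -0.017 to 0.104 and that of Smc1b to Smc1a from -0.173 to 0.088; the cause was not tested. Rad21l, Smc1a, Sgo1 and Ctcfl had no value under a filter of 5 TPM.

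Same-numbered libraries did not deviate together (correlations of -0.115, 0.1, 0.09 and -0.198). The labels link them by number alone, and whether they share a batch was not tested. The highest correlation between the groups, 0.359, was that of IgG replicate 4 with anti-PD-L1 replicate 1. With the replicate block 0 genes passed, Stag1 differed by 0.231 and no member changed its side of the threshold; for ratios 4 pairs cannot give a p under 0.125. Depth is unknown, and the SE of a member's log2 difference, 0.08 to 0.18, limits what could be seen.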
